A study of Capra hircus with 198 samples.

Results

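The mitochondrially encoded features of a goat expression atlas are described here. They were taken from the deposited count table by name: every feature whose identifier begins with KEF96_, which marks the mitochondrial genome, together with ND4-AS1 and ND5-AS1. That rule gave 41 of 39734 features: 13 protein-coding genes, 2 ribosomal RNA (rRNA) genes, 22 transfer RNA (tRNA) genes and 4 long non-coding RNAs (lncRNAs) that the deposited annotation places on the mitochondrial chromosome. The atlas covers 33 tissues of the same 6 adult female Murciano-Granadina goats, a Spanish dairy breed, with 1 total RNA library per tissue and goat. Lactating animals are goats 2, 3 and 6, and the dry ones, which gave no milk, are goats 54, 64 and 73. No further treatment is named in the labels, and all 33 libraries of a goat share that animal, so goat and state are fixed together.

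The mitochondrial genome is a small circle that is copied into RNA from both strands as long precursors, which are then cut at the tRNAs into messenger RNAs, rRNAs and tRNAs. Its messenger RNAs encode core subunits of the respiratory chain and of ATP synthase: ND1 to ND6 and ND4L for complex I, CYTB for complex III, COX1 to COX3 for complex IV, and ATP6 and ATP8 for ATP synthase. All of these are encoded in the same orientation except ND6, so transcription of the other strand yields stretches antisense to most of the genes. Tissues with a high demand for ATP, such as heart, skeletal muscle and brain, are known for their many mitochondria.

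Library totals ran from about 1309000 to 8967000 counts, with a median of 4632000. Levels are given as CPM, the count divided by the library total and scaled to a common total, so that 3 counts, the limit that a count of 0 allows, amount to 0.335 CPM in the deepest library and to 2.29 CPM in the shallowest. Intervals and limits of that kind cover counting error only. Of all libraries, 174 resembled the mean of their own tissue most by rank correlation, and 24, in 15 tissues, resembled another tissue more. Among these were all 3 lactating pineal libraries, which lay closest to hypothalamus or rhinencephalon, the abomasum and duodenum libraries of goat 2, which lay closest to each other's tissue, and the neck skin library of goat 3 and the esophagus library of goat 6, both closest to diaphragm. TPH1, a tryptophan hydroxylase taken as a pineal marker, had no count in the pineal libraries of goats 2 and 3. It had 0.419 CPM in goat 6, against 57.1 to 125 CPM in the 3 dry goats. AANAT, the other pineal marker, was near the limit of detection: it averaged 0.237 CPM in pineal gland, which ranked 22 of 33 tissues. Of 49 marker and tissue pairs measured, the tissue ranked among the 3 highest of 33 in 45. In bulk tissue, fewer cells of a type and less RNA per cell cannot be told apart.

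The 37 mitochondrial genes of the table all matched the RefSeq annotation of assembly ARS1.2 and lie between MT:1-68 (KEF96_t01) and MT:15365-15430 (KEF96_t22). The 4 lncRNAs are all annotated on the minus strand. KEF96_r01-AS1 has 2 exons within MT:1102-2130, a total of 852 bases, all of them opposite the 16S rRNA gene (MT:1092-2664), of which they cover 54.2%. KEF96_t22-OT1 has 1 exon of 525 bases opposite ND2 (MT:3921-4445) and a second at MT:15384-16643. The second covers 47 bases of the tRNA gene KEF96_t22 and all 1213 bases that follow the last annotated gene, the stretch that holds the control region in mammals.

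ND4-AS1 (MT:7844-10644, 2801 exon bases) lies opposite the whole of ATP6, COX3, ND3 and ND4L and the first 34.6% of ND4. ND5-AS1 (MT:7860-11816, 3877 exon bases) covers the whole of ND4 but only 69 bases, 3.79%, of ND5, the gene for which it is named. The pair share 2705 bases, 96.6% of ND4-AS1 and 69.8% of ND5-AS1. All deposited values of the 4 lncRNAs above 0 were fractional, as were 40.4% of those of ND6, whereas 10 of the other 12 protein-coding genes had whole counts only. Fractional values mark these as estimates, and how reads were divided between overlapping features is not stated. They did not follow overlap alone: 16S rRNA, opposite KEF96_r01-AS1, had whole counts only, as did ND2, opposite KEF96_t22-OT1. The libraries were made with a strand-specific kit. Nothing read here states how the counting used strand, so reads of a gene and of its antisense partner cannot be told apart beyond what the table assigns. Counting with the opposite strand setting would exchange sense and antisense reads and could turn each comparison between them, and this was not tested.

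As the table assigns reads to strands, the lncRNAs took the largest share of the mitochondrially encoded signal. Averaged over all libraries, the 4 of them summed to 22766 CPM, 87.8% of the total over the 41 features, against 3063 CPM (11.8%) for the 13 protein-coding genes, 91.6 CPM (0.353%) for the 2 rRNAs and 1.15 CPM for the 22 tRNAs. ND4-AS1 averaged 10483 CPM, ranging from 1688 to 29862 CPM over libraries, and KEF96_t22-OT1 averaged 9773 CPM, ranging from 1585 to 43769 CPM. ND5-AS1 averaged 1614 CPM and KEF96_r01-AS1 averaged 896 CPM. Every library had more lncRNA than protein-coding signal: the ratio of the sums ran from 3.38 to 24.8, with a median of 7.34.

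Per kilobase (kb) of exon the first 2 lncRNAs exchanged places, and ND5-AS1 fell below KEF96_r01-AS1, COX1 and CYTB. KEF96_t22-OT1 had 5475 CPM per kb, ND4-AS1 had 3743 and KEF96_r01-AS1 had 1051. Then came COX1, the catalytic subunit of cytochrome c oxidase, at 702 CPM per kb, CYTB, the core of complex III, at 476, ND5-AS1 at 416 and COX2, which receives electrons from cytochrome c, at 395. ND5, a proton-pumping subunit of complex I, had 280 CPM per kb and ND6, the only protein gene on the other strand, had 204. ATP6 had 173 CPM per kb, COX3 138, ND2 137, ND3 64.8, ND4 62.1, ND1 53.0, ND4L 49.4 and ATP8 28.3. Both rRNAs were low, with 63.1 CPM per kb for 12S and 35.4 for 16S. Nothing read here states whether rRNA was removed from these libraries.

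**Figure D1:**
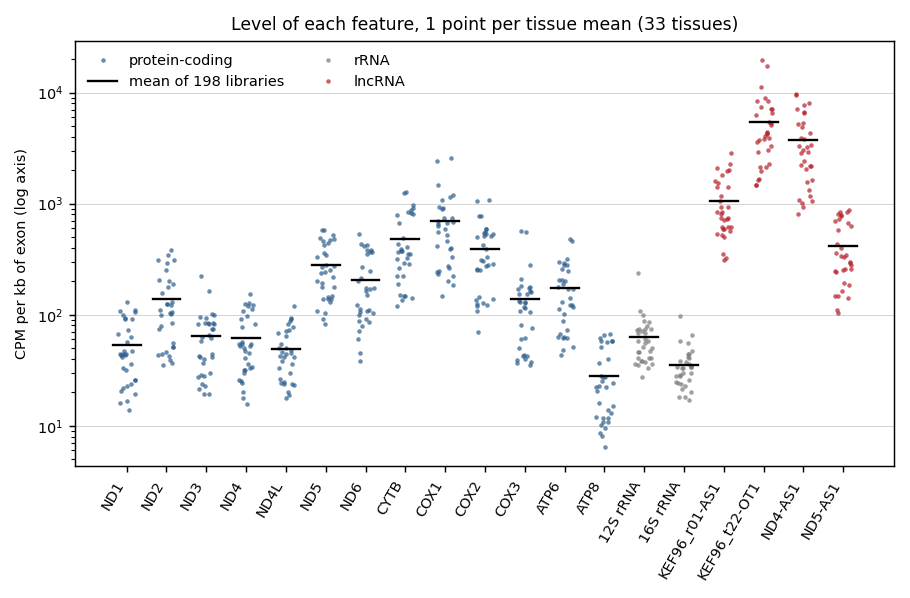
Level of each protein-coding gene, rRNA and lncRNA in CPM per kb of exon (log axis); each point is the mean of 6 goats in 1 tissue, and the bar is the mean of all libraries. KEF96_t22-OT1 (5475) and ND4-AS1 (3743) stand above every messenger RNA, of which COX1 (702) is the highest.

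The tRNAs were at the limit of detection. Of 22 tRNA genes, 5 had no count in any library (KEF96_t08 to KEF96_t12, between MT:5017 and MT:6939), 8 had a count in at most 10 libraries and 8 in 15 to 52. KEF96_t20 (MT:14080-14148) was the exception with a count in 122 libraries, a mean of 0.445 CPM and a highest count of 18. Over all libraries the 22 tRNAs summed to 1072 counts, too few to compare single tRNAs between tissues.

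For ND4 the antisense feature, on the strand assignment of the table, exceeded the sense gene in every library. ND4-AS1 divided by ND4 ran from 27.8 to 991 in CPM, with a median of 117, and from 13.7 to 488 per kb, with a median of 57.6. The mean log2 ratio over 33 tissues, with 1 CPM added to each, was 7.96, 6.26, 7.87, 6.46, 6.48 and 6.58 in goats 2, 3, 6, 54, 64 and 73. It lay above 0 in 6 of 6 goats, with a mean of 6.93 ± 0.77 (SD, n = 6, exact two-sided sign-flip test, p = 0.03125, the smallest that 6 goats allow). Only 477 bases of ND4-AS1 lie opposite ND4, so the ratio sets the whole lncRNA against the gene. Against ATP6, COX3, ND3 and ND4L summed, which it spans in full, ND4-AS1 was 16.7 to 292 times as abundant in CPM, with a median of 36.7.

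For ND5 the antisense feature was the higher in 132 libraries, not in all, and the ratio in CPM ran from 0.140 to 11.4, with a median of 3.47. The mean log2 ratios of the 6 goats in the same order were -1.42, 2.25, -1.63, 2.06, 2.06 and 2.18. The values thus fell on both sides of 0, with goats 2 and 6 below it and the other 4 above it, and the mean of 0.92 ± 1.90 (SD, n = 6) did not differ from 0 beyond that spread (exact two-sided sign-flip test, p = 0.25). KEF96_r01-AS1 exceeded 16S rRNA in all but 3 libraries, with a median ratio of 15.2 in CPM, and KEF96_t22-OT1 exceeded ND2 in every library, with a median ratio of 70.4.

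The share of counts taken by the 41 features was highest in striated muscle and brainstem and lowest in lymphoid organs and ovary. Heart (left ventricle) had the highest share at 7.65% ± 0.955 (SD, n = 6; lowest 6.53%, median 7.42%, highest 9.01%). Masseter muscle followed at 7.23% ± 1.06, diaphragm at 4.85% ± 0.666, rostral colliculus at 4.73% ± 0.647, bridge (brainstem) at 4.72% ± 0.473, medulla oblongata at 4.41% ± 1.19 and frontal neocortex at 4.08% ± 0.676. At the other end stood spleen at 0.657% ± 0.113 (lowest 0.468%, median 0.660%, highest 0.782%), mandibular lymph node at 0.728% ± 0.124, ovary at 0.773% ± 0.219, lung at 0.836% ± 0.122 and mammary gland at 0.989% ± 0.389. Heart lay 11.6-fold above spleen, and no goat of one overlapped the other, but no 2 neighbours in the order of 33 tissues were separated: in each step the goats of the tissues overlapped. Cerebellar hemisphere, at 2.01% ± 0.127, lay below the other brain regions named here.

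The share also moved with sequencing depth and with the libraries that stood apart. Over the 33 tissue means it rose with the mean library total (Spearman rho 0.642, a description over tissues that share goats), and the part of depth in the order was not tested. Pineal gland had 2.26% ± 1.39, but 1.05% ± 0.0386 over the 3 dry goats alone, and neck skin had 1.09% ± 0.603, but 0.787% ± 0.0770 without its 2 libraries closest to another tissue. Without the 10 most abundant features annotated outside the mitochondrial genome in the total, the heart share became 16.05% and the spleen share 0.869%. The lncRNA LINC07885, 1 of those 10, had 189086 CPM in heart and 13175 in spleen, so leaving it out raises heart more by construction. By goat the mean share over 33 tissues was 2.51%, 2.53% and 2.34% in goats 2, 3 and 6 and 2.71%, 2.66% and 2.80% in goats 54, 64 and 73. The goat means thus spanned a much narrower range than the tissue means, and all 3 lactating goats lay below all 3 dry ones. The mean library totals of the goats separated the states in the same way, with all 3 lactating goats below all 3 dry ones, and their part in the difference was not tested.

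**Figure D2:**
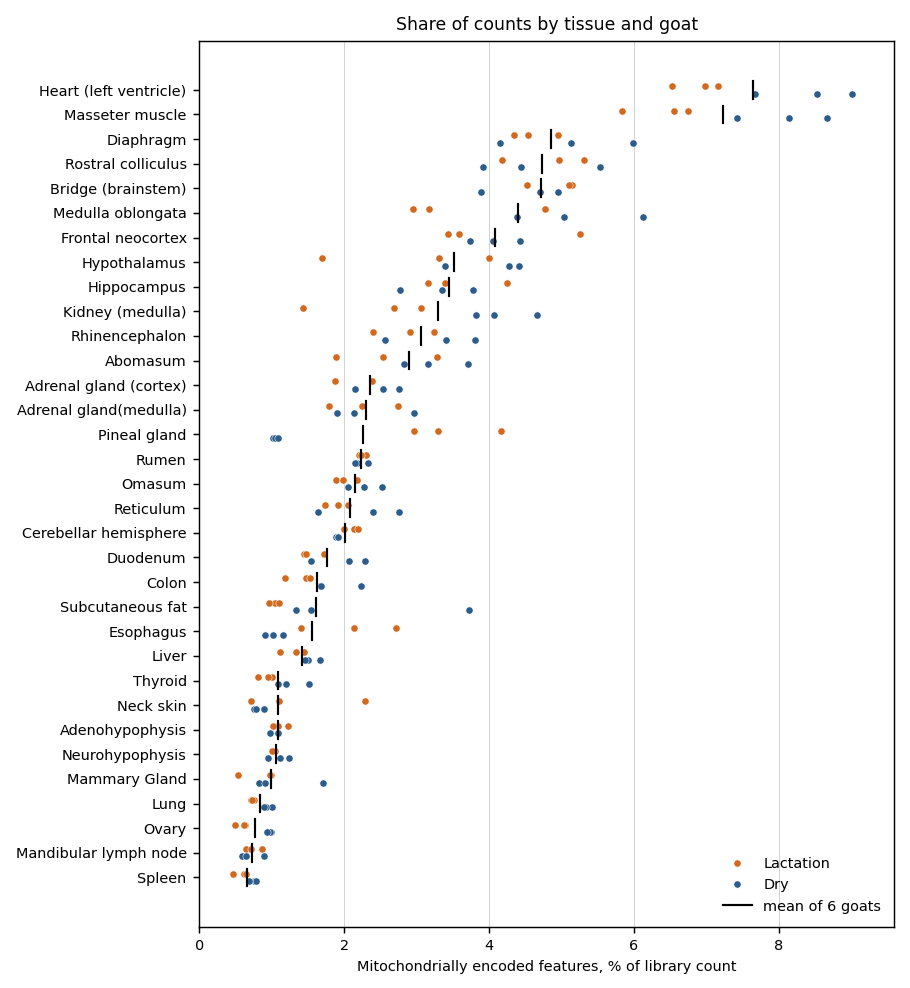
Share of the library count taken by the 41 mitochondrially encoded features (percent) in each tissue; each point is 1 goat, coloured by state, and the bar is the mean of 6 goats. The points of neighbouring tissues overlap throughout, between 7.65% for heart and 0.657% for spleen.

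Each tissue was then compared with the mean of the other 32 by edgeR's quasi-likelihood test with TMM scaling, across 28791 features that passed the count filter. Of the 41 mitochondrially encoded features 20 passed that filter: the 13 protein-coding genes, both rRNAs, the 4 lncRNAs and KEF96_t20. The other 21, all tRNAs, were not tested. A call is a Benjamini-Hochberg adjusted p under 0.05. Over 660 pairs of feature and tissue, 183 were called higher and 157 lower. In 17 tissues every call was higher, in 13 every call was lower, in 2 both occurred and in adrenal medulla there was none. Contrasts of different tissues share libraries, so these counts are not independent of each other.

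In heart all 20 were called higher, where 17.7% of all features were, with a median log2 fold of 2.83 against -0.13 for all features. Masseter muscle had 19 of 20 higher (19.5% of all features) and diaphragm 19 of 20 (18.1%). COX1 had 4013 ± 503 CPM in heart (SD, n = 6; lowest 3468, median 3952, highest 4764) and 993 CPM as the mean of the other tissues, and the heart libraries all lay above the highest ovary library at 337 CPM. Its log2 fold was 3.49 ± 0.18 (SE, edgeR adjusted p = 3.12e-42). The other genes of complex IV followed: COX3, a core subunit next to COX1, had 435 ± 81.3 CPM in heart against 98.3 elsewhere (log2 fold 3.67 ± 0.20), and COX2 had 731 ± 128 against 255 (2.995 ± 0.17). The largest single value was COX3 in masseter muscle, at 447 ± 106 CPM and a log2 fold of 3.75.

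The complex I genes rose in heart by differing amounts. ND3 had 77.6 ± 25.3 CPM against 20.7 elsewhere (log2 fold 3.34 ± 0.19, edgeR adjusted p = 4.31e-39) and ND2 had 403 ± 105 against 135 (3.08 ± 0.20). ND5, at 866 ± 216 CPM against 499, had a log2 fold of 2.17 ± 0.14, and ND4 and ND4L had 2.09 each. CYTB had 1408 ± 202 CPM against 515 (2.93 ± 0.15) and ATP6 had 326 ± 48.4 against 111 (3.01 ± 0.15). Of the lncRNAs, KEF96_t22-OT1 had 35073 ± 6086 CPM against 8982 (3.40 ± 0.14) and ND4-AS1 had 26826 ± 1643 against 9972 (2.90 ± 0.15), with a lowest heart library of 25006 CPM.

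These log2 folds are on the TMM scale, and their reference is the mean of the other tissues on the log scale. The CPM given for the other tissues are arithmetic means, so a log2 fold can exceed the ratio of mean CPM apart from the scaling. In heart and muscle the log2 folds exceed these ratios. Single lncRNAs annotated on nuclear chromosomes took a large part of the counts there (LINC07885 had 189086 CPM in heart). The parts of scaling and of the log-scale reference in that excess were not separated. Scaled by library totals alone, the median of all features in heart moved from -0.13 to -1.24, and heart had 17 of 20 higher with a median log2 fold of 1.68, masseter muscle 18 and diaphragm 15. 12S rRNA was the one feature whose direction in heart turned: it had 23.1 ± 8.47 CPM there against 36.3 elsewhere, a log2 fold of 0.69 (edgeR adjusted p = 0.0478) with TMM and of -0.50 with library totals. KEF96_t20, with 0.385 CPM in heart against 0.447 elsewhere, was called on single counts.

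Of the brain tissues, 6 shared a different pattern. Medulla oblongata had 16 of 20 called higher (17.4% of all features), rostral colliculus 15 (19.5%), frontal neocortex 15 (20.7%), bridge 14 (17.1%), hypothalamus 14 (18.5%) and hippocampus 12 (16.5%). 12S rRNA and ND5-AS1 were not called in any of these 6 tissues, and COX1 and COX3 were each not called in 5 of them. In frontal neocortex CYTB had 1005 ± 478 CPM against 528 elsewhere (log2 fold 1.305 ± 0.18, edgeR adjusted p = 1.46e-10) and ND4-AS1 had 18849 ± 3175 against 10221 (1.28 ± 0.18). COX1 had 1158 ± 615 CPM against 1082 there, with a log2 fold of 0.53 ± 0.26 that did not pass (edgeR adjusted p = 0.116). The frontal neocortex libraries of goats 2 and 3 were closest to pineal gland and rhinencephalon. In that of goat 2 COX1 made up 6.44% of the summed protein-coding CPM, and its part in the mean was not tested. In rostral colliculus ND6 reached its highest tissue mean, 280 ± 150 CPM, and so did ND5, 1060 ± 313 CPM, ND4, 211 ± 107 CPM, and ND5-AS1, 3412 ± 2509 CPM. Rhinencephalon had fewer calls, with 6 of 20 higher (19%), CYTB and ND4-AS1 among them. Cerebellar hemisphere stood apart from the other brain regions with 7 called lower (15.6%) and only KEF96_t20 called higher (20.9%).

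In the forestomachs only a few features passed, COX1 and COX2 among them. COX1 was called higher in omasum (1766 ± 377 CPM), rumen (1848 ± 638) and reticulum (1656 ± 296), against 1063, 1060 and 1066 CPM in the other tissues of each contrast, with log2 folds of 1.31, 1.37 and 1.12. COX2 was called in all of them as well, while CYTB had log2 folds of 0.11, 0.05 and 0.12 and passed in none. The difference between COX1 and CYTB was not tested. In all, 5 features were called higher in omasum (19.7% of all features), 4 in rumen (15.3%) and 2 in reticulum (17%), shares near those of all features. In the esophagus 12S rRNA alone was called (17.4%), and subcutaneous fat had both rRNAs higher (14.2%) with ATP6 and ND4-AS1 lower (5.07%). The rRNAs of fat summed to 378, 886 and 206 CPM in goats 2, 3 and 6, but to at most 111 CPM in the dry goats. Over all libraries their mean was 91.6 CPM, so the high rRNA mean of fat came from the lactating goats. Fat of the dry goats alone was not tested against the other tissues.

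Lower calls were most numerous in ovary, pituitary, spleen and lymph node. In ovary 17 of 20 were called lower (4.23% of all features), in neurohypophysis 17 (8.61%), in adenohypophysis 16 (8.81%), in spleen 16 (9.1%), in mandibular lymph node 16 (12.7%), in thyroid 14 (8.28%), in lung 14 (5.4%), in mammary gland 13 (4.88%) and in neck skin 13 (2.81%). COX2 in ovary had 47.6 ± 9.76 CPM (lowest 35.1, median 49.6, highest 58.6) against 277 elsewhere, a log2 fold of -2.48 ± 0.30 (edgeR adjusted p = 3.23e-12). ND4-AS1 in spleen had 2280 ± 439 CPM against 10739, a log2 fold of -2.18 ± 0.26 (edgeR adjusted p = 1.45e-12), and ND6 in spleen had 20.3 ± 8.10 CPM, its lowest tissue mean. ND5-AS1 passed in none of these tissues and in 3 of 33 in all, each time higher.

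The remaining tissues had few calls. Higher calls numbered 8 in kidney medulla (14.1% of all features), 5 in abomasum (13.8%) and 5 in adrenal cortex (18.6%). Lower calls numbered 5 in colon (5.35%), 3 in liver (14.1%), 2 in duodenum (6.56%) and 2 in pineal gland (12.2%).

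**Figure D3:**
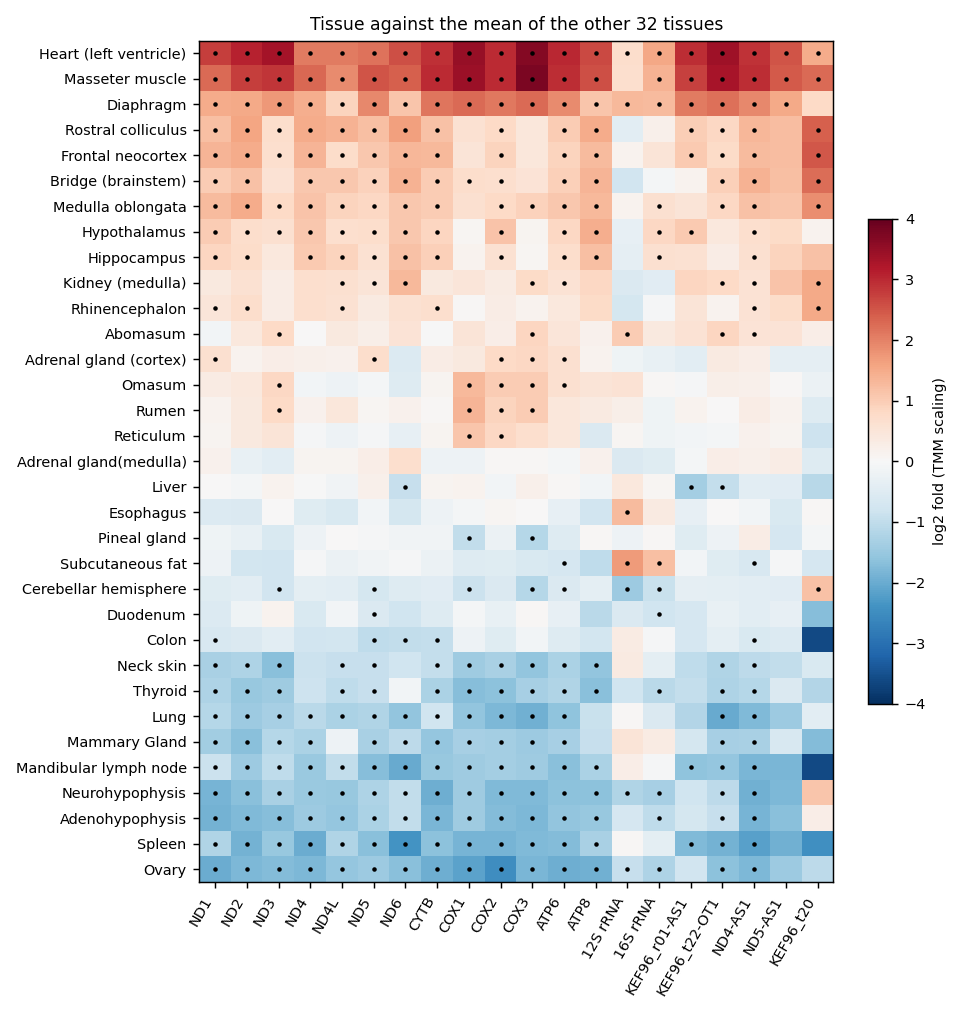
Log2 fold of each tissue against the mean of the other 32 (edgeR, TMM scaling; colours stop at 4 in either direction) for the 20 tested features; dots mark an adjusted p under 0.05. Heart and masseter muscle are high in nearly every column, COX1 and COX3 are pale in the brain tissues where CYTB and ND4-AS1 are called, and the rRNA columns follow another order.

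The proportions among the protein-coding genes also differed between tissues. COX1 made up 33.6% of the summed CPM of the 13 genes on average. Its mean share was 50.2% in omasum, 48.9% in rumen, 48.1% in reticulum and 45.7% ± 2.12 in heart, against 23.7% in frontal neocortex, 23.6% in hypothalamus and 22.9% in pineal gland. The 6 heart libraries (42.3% to 48.3%) lay above all 6 hypothalamus libraries (13.8% to 32.2%). ND5 ran the other way, from 9.87% in heart to 25.6% in pineal gland. The mean of the library ratios of CYTB to COX1 ran from 0.233 in omasum to 1.09 in frontal neocortex. In mean CPM CYTB lay below COX1 in frontal neocortex, and the mean ratio there includes the library of goat 2 with its low COX1 share. The lowest COX1 share of any library was 3.79%, in the abomasum library of goat 2, which had 47.7 CPM of COX1 against 822 to 1618 CPM in the other 5 and was closest to duodenum. That library also had the highest ratio of lncRNA to protein-coding signal, 24.8, and the mammary gland library of goat 54, closest to ovary and with a COX1 share of 8.99%, had 22.03. The frontal neocortex library of goat 2, closest to pineal gland, had a COX1 share of 6.44% and a ratio of 19.5.

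Across the 33 tissue means the protein-coding genes and lncRNAs moved together, and 12S rRNA did not follow them. Spearman correlations between protein-coding genes ran from 0.638 to 0.969 (78 pairs, median 0.895), those between lncRNAs and protein-coding genes from 0.704 to 0.968 (52 pairs) and those between lncRNAs from 0.862 to 0.959 (6 pairs). 12S rRNA had correlations of -0.35 to -0.02 with the 17 other features but 16S, whereas 16S rRNA had 0.38 to 0.61 with the protein-coding genes and 0.42 to 0.51 with the lncRNAs. These are descriptions over tissues whose points share goats, library totals and a denominator. The 2 most abundant lncRNAs kept unequal proportions: KEF96_t22-OT1 divided by ND4-AS1 was 1.86 ± 0.341 in adenohypophysis and 1.79 ± 0.375 in neurohypophysis, against 0.669 ± 0.0860 in liver, and the pituitary and liver libraries did not overlap. The deposited tau score, which runs from 0 for even expression to 1 for a single tissue, was 0.174 for ND5, 0.219 for COX1, 0.214 for ND4-AS1 and 0.524 for ATP8, per the authors' deposited table.

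Nuclear genes of the same pathways were taken from lists of complex subunits and regulators. In heart, where 17.7% of all features were called higher, 37 of 38 nuclear complex I genes were, 4 of 4 tested of complexes II and III and 14 of 15 of ATP synthase, with medians of 2.86, 2.90 and 2.87 on the log2 scale. The genes listed for nuclear complex IV and 9 of the 13 listed for complexes II and III were not analysed here. Nuclear complex I genes are here those of the list, which holds NDUFA4 by name although it is a complex IV subunit. SDHA, the flavoprotein of succinate dehydrogenase, had 87.6 ± 14.5 CPM in heart against 22.5 elsewhere (log2 fold 3.53 ± 0.21, edgeR adjusted p = 1.22e-36), and ATP5A1, the alpha subunit of ATP synthase, had 295 ± 77.4 against 79.3 (3.51 ± 0.24). NDUFV2, a complex I core subunit, had the smaller log2 fold of 0.49 ± 0.16 (edgeR adjusted p = 0.00948), with 20.3 ± 5.27 CPM in heart against 34.3 elsewhere. Its direction as called rests on TMM scaling, since library totals alone shift the median of all features in heart by -1.11. In frontal neocortex, where 15 mitochondrially encoded features were called higher, none of the 38 nuclear complex I genes was called higher and 3 were called lower, and of the 15 ATP synthase genes 2 were called lower, with median log2 folds of -0.38 and -0.56, where 20.7% of all features were called higher and 11.8% lower.

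Genes that act on mitochondrial DNA and RNA were counted in heart as well, where 17.7% of all features were called higher and 12.5% lower. Of 14 tested genes of mitochondrial transcription and replication 5 were called higher, among them POLRMT, the mitochondrial RNA polymerase (3.21 ± 1.85 CPM against 1.65, log2 fold 2.497 ± 0.39, edgeR adjusted p = 3.01e-08), whereas POLG, the replicative polymerase, did not pass (0.55 ± 0.26, adjusted p = 0.0953). Of 22 genes of mitochondrial RNA processing and decay 12 were called higher and 1 lower. PDE12, a mitochondrial poly(A) exonuclease, was the one called lower (4.37 ± 0.736 CPM against 15.1, log2 fold -0.55 ± 0.19, edgeR adjusted p = 0.0156). TRNT1 (21.7 CPM against 49.3) and PNPT1 (13.8 against 41.2) of the same list were lower in CPM without a call. TFB1M, called higher, had 21.1 CPM against 24.5. All counts of nuclear genes in heart were made with TMM scaling only, and library totals alone shift the median of all features there by -1.11. Of 9 nuclear regulators of mitochondrial biogenesis 4 were called higher, with ESRRG (4.03 ± 0.41) and the coactivator PPARGC1A (3.30 ± 0.32) showing the highest log2 folds.

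The features outside the mitochondrial genome most like the summed signal were lncRNAs that the authors' deposited annotation classes as intergenic. Among 23998 candidates with a mean of at least 1 CPM, Pearson correlations over the 33 tissue means of log2(CPM + 1) were highest for LINC22482 (0.989; chr8:92663445-92667238), LINC00809 (0.961; chr1:54131069-54188268), LINC22484 (0.950; chr8:92669460-92672197), LINC07886 (0.950; chr3:81705391-81709710) and LINC07885 (0.939; chr3:81703823-81705312). The positions are those of the deposited annotation, in which 99.7% of the lncRNAs named for a gene overlap that gene in ARS1.2. By position LINC00809 overlaps the RefSeq gene LOC106503794, and the other 4 overlap none. LINC22482 had 60761 ± 2998 CPM in heart and 5382 ± 596 in spleen. LINC07885 reached 189086 CPM in heart, so these features also weigh on the total by which CPM is set. Their sequences were not compared with the mitochondrial genome, and whether reads of mitochondrial origin were assigned to them was not tested.

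A second pattern separated goats rather than tissues. The mean CPM of ND5-AS1 over 33 tissues was 227, 2504 and 177 in goats 2, 3 and 6 and 2353, 2170 and 2254 in goats 54, 64 and 73. Goats 2 and 6 were the 2 lowest in 33 of 33 tissues: their highest single values were 763 and 627 CPM, and the 4 other goats' lowest were 608, 450, 645 and 468 CPM. ND4, opposite the stretch that ND5-AS1 covers and ND4-AS1 mostly does not, had means of 45.8, 111 and 44.3 CPM in goats 2, 3 and 6 and of 102, 111 and 98.2 in goats 54, 64 and 73, with goats 2 and 6 lowest in 28 tissues. KEF96_r01-AS1 had 338, 777 and 370 CPM in the lactating goats and 1240, 1309 and 1340 in the dry ones, with goats 2 and 6 lowest in 25. ND2 had 92.7, 161 and 90.9 CPM in the lactating goats and 159, 194 and 162 in the dry ones, with goats 2 and 6 lowest in 20.

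ND5 showed no such order, with 533, 484 and 491 CPM in the lactating goats and 545, 520 and 487 in the dry ones. ND4-AS1, which shares most of its bases with ND5-AS1, was highest in the same goats, at 12293 and 10891 CPM in goats 2 and 6 against 9887 in goat 3 and 9813, 9936 and 10078 in the dry goats. The sum of ND4-AS1 and ND5-AS1 varied less, from 11069 to 12520 CPM. Whether the mitochondrial sequence of a goat affects how reads are assigned to these overlapping features was not tested. Of 13353 features with a mean of at least 5 CPM, ND5-AS1 was the only one with goats 2 and 6 lowest in all 33 tissues, and 5 had them lowest in 20 or more: these 4 and LINC48379. Both goats were lactating, and the labels name nothing else that they share. This pattern was noticed in the data and carries no test.

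**Figure D4:**
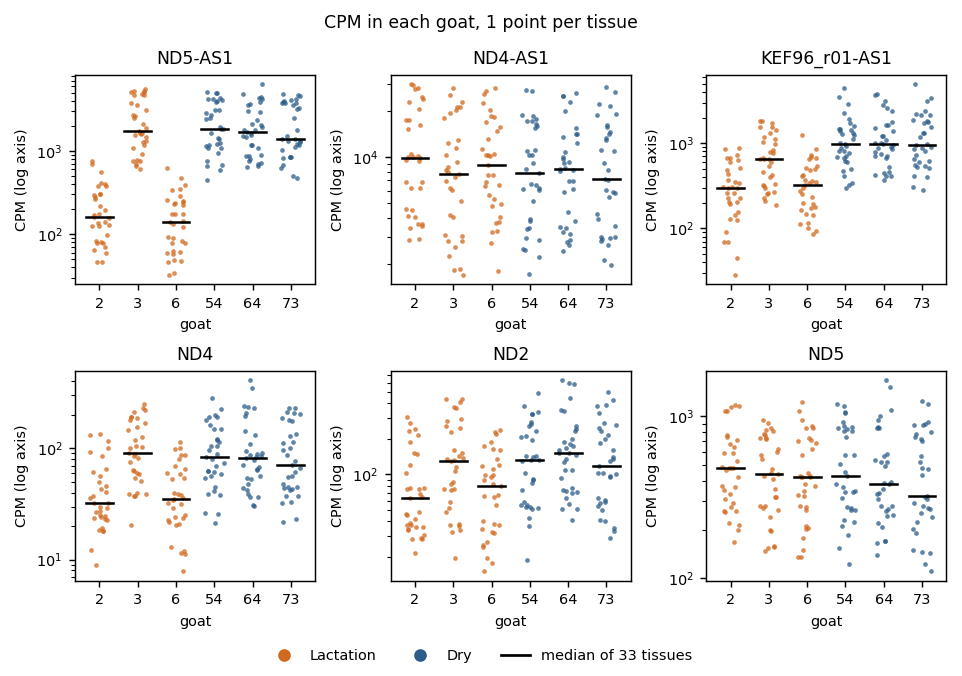
CPM (log axis) of 6 mitochondrially encoded features in each goat; each point is 1 tissue, coloured by state, and the bar is the median of 33 tissues. ND5-AS1 has means of 227 and 177 CPM in goats 2 and 6 against 2170 to 2504 in the other 4, including the lactating goat 3; ND4 and KEF96_r01-AS1 are lower in them too, and ND5 and ND4-AS1 are not.

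Lactating and dry goats were compared within each tissue by edgeR's quasi-likelihood test, 3 against 3 libraries. Of 618 pairs of feature and tissue tested, 14 were called higher in lactation, where 0.925% of all tests were, and 41 lower, where 0.976% were. The calls fell in 13 tissues and on 17 features. At an unadjusted p under 0.05, 41 pairs were higher and 183 lower, together 36.2% of the pairs against 12.4% of all features and tissues, and 436 of the 618 log2 differences lay below 0. Since 2 of the 3 lactating goats are those low in ND5-AS1, ND4, KEF96_r01-AS1 and ND2, goat and state cannot be told apart for these features.

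KEF96_r01-AS1 carried 11 of the 41 lower calls and lay below 0 in 32 of 33 tissues, with a median log2 difference of -1.43. In heart it had 856, 1533 and 724 CPM in goats 2, 3 and 6 and 4431, 3785 and 3364 in goats 54, 64 and 73. The groups did not overlap, goat 3 lay between the other lactating goats and the dry ones, and the log2 difference was -2.18 ± 0.23 (SE, edgeR adjusted p = 0.00022). In masseter muscle it had 514, 967 and 482 CPM against 3498, 3104 and 3106 (-2.87 ± 0.28, edgeR adjusted p = 0.00067). In ovary it had 227, 189 and 144 CPM against 767, 754 and 949 (-2.495 ± 0.21, edgeR adjusted p = 0.00081), and there goat 3 was not the highest of the lactating goats.

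The other 8 tissues in which KEF96_r01-AS1 was called were diaphragm (log2 difference -2.95), adrenal cortex (-2.94), colon (-2.07), thyroid (-1.87), lung (-1.72), kidney medulla (-1.72), neurohypophysis (-1.01) and cerebellar hemisphere (-0.94). It was the 1 feature called lower in thyroid (0.0777% of all features), neurohypophysis (1.67%) and cerebellar hemisphere (0.785%), and 1 of 3 in lung (0.589%), 1 of 3 in adrenal cortex (1.33%) and 1 of 4 in colon (0.915%). In 23 of 33 tissues all 3 lactating libraries lay below all 3 dry ones, where 7.45% of all tests did. The number of tissues called was 7 to 10 when a goat other than goat 3 was left out. It was 19 without goat 3, which sets the 2 goats noticed above against the dry ones and is no separate support. The number was 26 with no filter on low counts and 17 with DESeq2. The sense partner, 16S rRNA, was called lower in heart (50.1, 33.3 and 55.0 CPM against 92.3, 94.3 and 63.8, log2 difference -1.08 ± 0.26), masseter muscle and colon, and KEF96_r01-AS1 was called beside it in all 3.

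**Figure D5:**
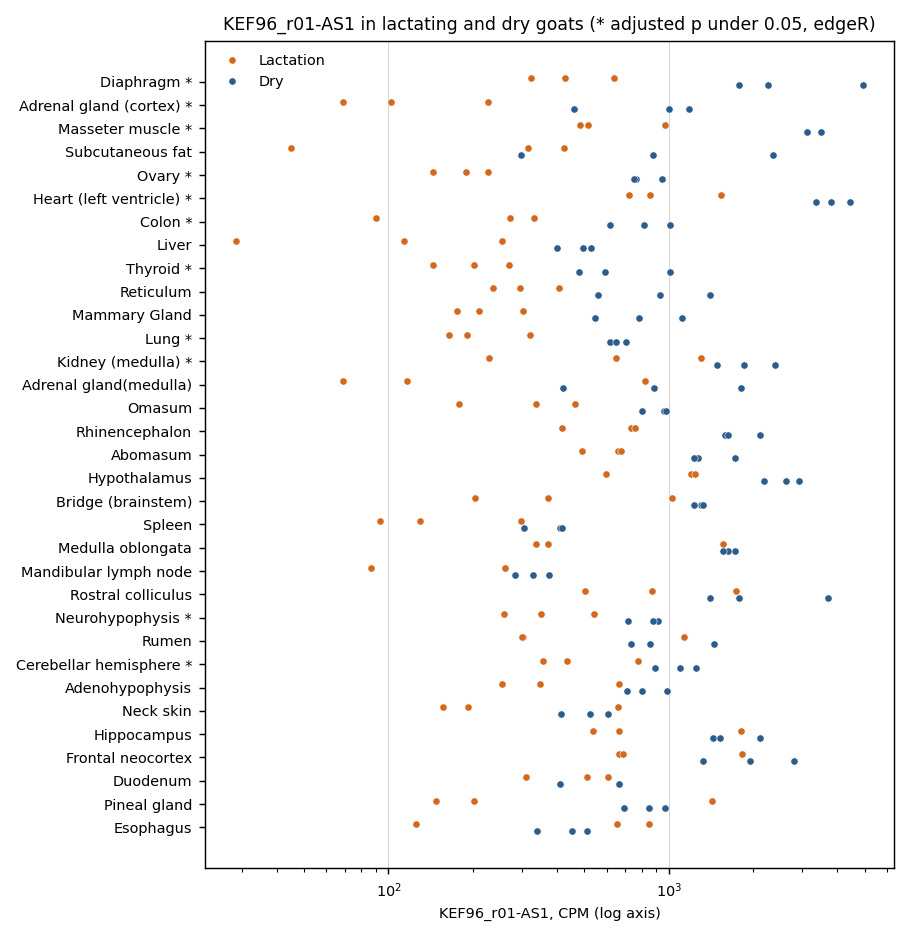
CPM of KEF96_r01-AS1 (log axis) in the 3 lactating and 3 dry goats of each tissue, ordered by log2 difference; an asterisk marks an edgeR adjusted p under 0.05. The lactating goats lie to the left in nearly all tissues, and in heart they span 724 to 1533 CPM against 3364 to 4431.

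ND5-AS1 was called in no tissue, although it also lay below 0 in 32 of 33 with a median log2 difference of -1.43, and its lowest edgeR adjusted p was 0.081; DESeq2 called it in none either. It was called lower in 23 tissues with no filter on low counts and in 4 without the libraries closest to another tissue. Its lactating groups held goat 3 at the level of the dry goats. Without goat 3 it was called lower in 26 tissues, which sets the 2 goats noticed above against the dry ones and is no separate support. ND2, which lies opposite the first exon of KEF96_t22-OT1, was below 0 in 31 tissues and called lower in 4, among them ovary (21.8, 38.4 and 19.7 CPM against 58.3, 51.0 and 41.5, log2 difference -1.26 ± 0.27, edgeR adjusted p = 0.0214). The 4 tissues became 14 with no filter, 10 with DESeq2, 1 with library totals and 1 to 5 with 1 goat left out. ND4 was below 0 in 30 tissues and called in 1, kidney medulla. It was called lower in 12 tissues with no filter, in 8 without goat 3, in 4 with DESeq2, in 3 without the libraries closest to another tissue and in none without goat 2, goat 6 or goat 64. The counts of ND2 and ND4 without goat 3 also set those 2 goats against the dry ones.

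Kidney medulla had the most calls of a single tissue, with 12 of 19 tested features lower, where 9.11% of all features were, and a median log2 difference of -1.03. The 12 became 7 with library totals and 6 (without goat 54) to 13 (without goat 3 or goat 6) with 1 goat left out, and without goat 73 kidney medulla had 9 against 12 in ovary. ND6 had 47.6, 119 and 96.8 CPM in goats 2, 3 and 6 and 308, 444 and 150 in goats 54, 64 and 73 (-2.11 ± 0.41, edgeR adjusted p = 0.00400). ND2 had 38.7, 130 and 98.8 CPM against 259, 231 and 217 (-1.72 ± 0.36, edgeR adjusted p = 0.00653), and ATP8 had 4.87, 2.25 and 3.78 against 10.1, 12.4 and 10.5 (-1.97 ± 0.40, edgeR adjusted p = 0.00502). Goat 2 was the lowest of the 6 for ND6 and ND2, and its library also had the lowest share of all 41 features, 1.43%. The share was 1.43% to 3.06% in lactating goats and 3.83% to 4.66% in dry ones. ND4-AS1 and KEF96_t22-OT1 were lower too, with log2 differences of -1.03 and -0.99. In the same tissue 3 of 30 tested nuclear complex I genes were called lower, 1 of 4 of complexes II and III and 3 of 13 of ATP synthase, shares to be read against the same 9.11%. Among them were SDHA (24.2 against 51.6 CPM, log2 difference -1.45 ± 0.21, edgeR adjusted p = 0.00060) and ATP5B (21.1 against 44.4, -1.40 ± 0.28, edgeR adjusted p = 0.00477). The 6 libraries differed in the kidney markers SLC12A1 (25.9 to 569.5 CPM), UMOD (41.6 to 625.6) and AQP2 (14.3 to 30.7). The part of cell composition in these calls was not tested.

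Ovary had 9 of 18 tested features lower, where 5.97% of all features were. COX1 had 180, 147 and 166 CPM in goats 2, 3 and 6 and 323, 337 and 217 in goats 54, 64 and 73 (-1.16 ± 0.19, edgeR adjusted p = 0.00875). ND6 had 24.2, 15.7 and 23.2 CPM against 40.3, 44.3 and 42.4 (-1.35 ± 0.24, edgeR adjusted p = 0.0109), and KEF96_t22-OT1 had 2382, 1585 and 2612 against 3841, 3727 and 3730 (-1.12 ± 0.20). In these 3 features every lactating ovary lay below every dry one, and goat 3 was the lowest. With 1 goat left out, the number called in ovary ran from 2, without goat 2 or goat 6, to 12, without goat 73, and library totals gave 4.

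In striated muscle few features passed beyond KEF96_r01-AS1. Masseter muscle had 4 of 19 lower, where 0.551% of all features were: KEF96_r01-AS1, 16S rRNA, ND6 (141, 184 and 111 CPM against 212, 201 and 271, log2 difference -1.18 ± 0.24, edgeR adjusted p = 0.0292) and KEF96_t22-OT1 (25605, 26110 and 23302 CPM against 38531, 35025 and 39275, -1.11 ± 0.25, edgeR adjusted p = 0.0467). Heart had 2 of 19 lower (0.724%) and diaphragm 1 of 19 (1.19%). The share of all 41 features did not overlap between states in heart, at 6.53% to 7.16% in lactating goats and 7.68% to 9.01% in dry ones, nor in masseter muscle, at 5.83% to 6.75% and 7.43% to 8.67%. In heart 2 of the 38 genes on the nuclear complex I list were also called lower. They were NDUFA10 (25.2 against 38.4 CPM, -0.87 ± 0.22) and NDUFA4 (48.3 against 82.9, -1.04 ± 0.26), a complex IV subunit listed there by name. TFB1M, a mitochondrial rRNA methyltransferase, was called higher (31.6 against 10.5 CPM, 1.31 ± 0.32, edgeR adjusted p = 0.0406), as were 2.15% of all features.

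The 14 higher calls came from 3 tissues. Pineal gland had 9 of 19 higher (3.1% of all features), for example COX2 (317, 444 and 254 CPM against 70.2, 92.3 and 85.6, log2 difference 2.31 ± 0.23, edgeR adjusted p = 0.00123) and ND4-AS1 (24650, 11439 and 18428 CPM against 3776, 3773 and 3910, 2.58 ± 0.40, edgeR adjusted p = 0.00768). The 3 lactating pineal libraries are those closest to other brain tissues, and without them no comparison is left in this tissue. Adenohypophysis had 4 of 18 higher (1.55%): COX1 (512, 443 and 478 CPM against 345, 313 and 351, 0.71 ± 0.14, edgeR adjusted p = 0.0154), COX2, COX3 (44.2, 37.8 and 41.1 against 18.9, 15.97 and 25.2, 1.23 ± 0.24, edgeR adjusted p = 0.0147) and ND4-AS1. All lactating adenohypophysis libraries lay above all dry ones in these 4. However, all 3 lactating libraries and the dry one of goat 64 were closest to neurohypophysis. Without these libraries no comparison is left in this tissue either. None of these 4 features was called without goat 2 or without goat 6. In cerebellar hemisphere ND4-AS1 was called higher (9379, 8219 and 10244 CPM against 6629, 6959 and 7056, 0.54 ± 0.08, edgeR adjusted p = 0.00476; 0.306% of all features) beside the lower KEF96_r01-AS1.

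In 20 tissues no mitochondrially encoded feature was called. Among these was mammary gland, the milk-producing organ, with 11 of 18 log2 differences above 0 and 6 at an unadjusted p under 0.05, where 12.4% of all features were. In subcutaneous fat 16 of 19 features had an unadjusted p under 0.05, where 7.27% of all features did, and the median log2 difference was -1.54, but edgeR called no feature of any kind there; DESeq2 called 4 of the 19, 3 of them lower. The library of goat 73 had a share of 3.72% in fat, against 0.959% to 1.54% in the other 5.

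Over the whole body, goat means of log2 CPM across 33 tissues were compared with limma, 3 lactating against 3 dry goats, over 31306 features. Of the 20 tested mitochondrially encoded features 8 were called lower, where 4.51% of all features were, and 0 higher, where 4.02% were; at an unadjusted p under 0.05 there were 15, where 27.6% of all features were, and 1 of the 15 was higher (ND4L, 0.27 ± 0.08). KEF96_r01-AS1 had the largest called log2 difference, -1.64 ± 0.24 (SE, limma adjusted p = 0.00535), then ND2 (-0.78 ± 0.16, limma adjusted p = 0.0201) and ND6 (-0.46 ± 0.08, limma adjusted p = 0.00883). COX3 (-0.33), COX1 (-0.32), ATP6 (-0.26), KEF96_t22-OT1 (-0.25) and CYTB (-0.20) were called lower by smaller amounts. ND5-AS1 had -2.46 ± 0.77 and did not pass (limma adjusted p = 0.0726), nor did ND4 (-0.86 ± 0.27, limma adjusted p = 0.0767). ND4-AS1 stood at 0.00 ± 0.10.

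The size of the body-wide count rests on scaling and on single goats. Scaled by library totals alone, 3 were called lower, KEF96_r01-AS1, ND2 and ND6, and 1 higher, ND4L, while over all features 2737 were called higher and 602 lower in place of 1257 and 1413. Without goat 64 or without goat 73 there were 2 lower, KEF96_r01-AS1 and ND6. KEF96_r01-AS1 was lower under each of these. With a goat other than goat 3 left out, its log2 difference ran from -1.40 (without goat 2) to -1.66 (without goat 54). The limma adjusted p ran from 0.0135 to 0.0328. Without goat 3, KEF96_r01-AS1 had -2.02 (limma adjusted p = 6.98e-07) and ND5-AS1 was called lower (-3.68). That fit sets the 2 goats noticed above against the dry ones and is no separate support for either feature. The p-values measure the spread between 6 goats, 3 in each state.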

How the data were processed

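Per the labels' protocols, total RNA was extracted with RiboPure and sequenced on a NovaSeq from strand-specific VAHTS Universal V8 libraries. STAR, StringTie and edgeR are named in the submitters' processing notes without roles or versions, and the counting's use of strand was not given in the sources used here. The authors deposited 1 table of estimated counts, also called expected counts, per feature, made in a way no label states; 37.0% of its values above 0 were fractional, and all were rounded for the tests. The lncRNA positions are from the authors' deposited annotation, and tau, a fraction from 0 to 1, is the authors' deposited value. CPM was computed from the library totals.

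Members and gene lists were chosen with earlier results of these data known. Tissue and lactation contrasts used edgeR 4.0.16 (quasi-likelihood, TMM, filterByExpr with a minimum count of 10), with DESeq2 1.42.0 as an alternative; body-wide goat means with at least 1 CPM used limma 3.58.1 with a prior count of 2, in R 4.3.3. Adjusted p-values are Benjamini-Hochberg over all features tested, with a threshold of 0.05. The same 6 goats gave all 33 tissues, so replicate numbers pair libraries by animal across tissues. With 3 goats in each state, p-values rest on the spread between these animals. Described in full are features with a mean of at least 100 CPM, ND4, ND5 and their antisense features, and any called in lactation; from each pathway list the 3 most abundant genes and up to 2 with the largest called change could be named, and the 5 features outside the list most like the summed signal. A gene this rule would name is not reported here. The deposited CPM and gene length tables were not used here.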

Additional observations from a re-analysis of the deposited data

Results flagged for a closer look

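In neck skin the library of goat 3 had a mitochondrially encoded share of 2.29%, far from the 0.714% to 1.11% of the other 5 goats. Its profile was closest to diaphragm, and it held 830 CPM of CKM, the creatine kinase of muscle. In subcutaneous fat the library of goat 73 had 3.72%, against 0.959% to 1.54% in the other 5. Over single features, 29 of 429 groups of 6 goats (6.76%) held such an outlying goat. These groups are not independent, since the features share libraries: neck skin of goat 3 stood out for CYTB, ATP6 and COX1, among others. The share was therefore not set against a chance rate. What sets these libraries apart was not tested.

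For 9 features the lactating goats lay above all dry goats in 1 tissue and below all of them in another, with both differences called by edgeR. The log2 differences in pineal gland were 1.83 for 16S rRNA, 1.5 for ATP6, 2.31 for COX2, 2.14 for CYTB, 2.09 for KEF96_t22-OT1, 2.58 for ND4-AS1 and 1.15 for ND5. In adenohypophysis they were 0.708 for COX1 and 1.23 for COX3. On the lower side 16S rRNA had -1.77 in colon. In ovary ATP6 had -1.03, COX1 -1.16, COX2 -0.825 and KEF96_t22-OT1 -1.12. In kidney medulla COX3 had -1.21, CYTB -1.01, ND4-AS1 -1.03 and ND5 -1.3. The difference between these tissues was not tested, and the lactating pineal libraries are those closest to other brain tissues. Every lactating adenohypophysis library was closest to neurohypophysis.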

How the results depend on the processing

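Tissue calls ranged from 158 to 255 higher and from 143 to 180 lower over all alternatives tried. With goat as replicate block, the paired fit, 194 were higher and 180 lower, and no count moved by more than 1.5 times. Among single results named for the tissue contrasts, 449 kept their call and direction, 18 lost the call and 1 reversed: 12S rRNA in heart, at -0.50 with library totals. Lactation calls within tissues depended more on the processing. The 14 higher calls became 24 with no filter on low counts, 6 without the libraries closest to another tissue, an alternative chosen after seeing the data, and 6 (without goat 54 or 73) to 17 (without goat 3) with 1 goat left out. The 41 lower calls became 26 with library totals, 134 with no filter, 74 with DESeq2, and 21 (without goat 64) to 69 (without goat 3) with 1 goat left out. Of single lactation results, 465 kept their call and 182 lost it. Body-wide, library totals gave 1 higher and 3 lower in place of 0 and 8, and leaving out 1 goat gave 2 to 10 lower; 57 single results kept their call and 23 lost it. The log2 ratio of ND4-AS1 to ND4 stayed between 6.73 and 7.07 with 1 goat left out, where 5 goats allow no p below 0.0625. The heart share was 8.84% among features not annotated as lncRNAs. It was 16.05% without the 10 most abundant features annotated outside the mitochondrial genome, where spleen had 0.869% and the fold became 18.5. Those 10 include the 5 features named above as most like the summed signal. LINC07885 among them had 189086 CPM in heart and 13175 in spleen, so leaving it out raises that fold by construction. Apart from these constructions, the cause of each change was not tested. With 3 goats in each state, a missing call does not show equal levels.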
